A study of Homo sapiens and Mus musculus with 20 samples.

Results

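CIITA, RFX5, RFXAP and RFXANK encode the transactivator of the MHC class II genes and the 3 subunits of the RFX complex that recruits it, and they were followed through lists of enriched regions from a chromatin immunoprecipitation study of the histone demethylase KDM6A in multiple myeloma. Members were all regions that overlapped one of the 4 gene bodies or the 10 kb on either side of it (GRCh38), which gave 153 of the 805893 regions on 16 human lists. CIITA held 83 of them, RFX5 36, RFXANK 30 and RFXAP 4. ARP1, a human myeloma cell line, was profiled as KDM6A knock out (KO), as KDM6A JmjD-dead (titled H1146E, a change in the JmjC demethylase domain) and as KDM6A wild type (WT). H3K27ac, H3K27me3 and input DNA came from all 3 genotypes and H3K4me1 from KO and WT, where the KO library's title names it differently from the other KO libraries and the genotype was taken from its genotype label. A KDM6A antibody was used on ARP1 KO and WT cells and on KARPAS, a line labelled as multiple myeloma with wild-type KDM6A. An HA antibody was used on a tagged ARP1 line and on the ARP1 WT line. The tagged line carries the knock out genotype label, and the labels give neither the source of its tagged protein nor the number of clones behind any line. The labels name no treatment for any group. With a single library in every group there was no replicate to test against, so values are described without p-values. In such bulk material an enriched stretch that is present in fewer cells cannot be told apart from one that is weaker in each cell.

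MHC class II molecules present peptides to CD4+ T cells. Their genes share a short promoter module in which the RFX complex occupies the X box, NF-Y the CCAAT-containing Y box, and CREB family factors a neighbouring element. RFX5 carries the DNA-binding domain, RFXAP and RFXANK complete the complex, and the 3 genes are expressed in most cell types. CIITA does not bind DNA itself but docks on this assembly and brings in histone acetyltransferases, so that class II expression follows CIITA. Loss of any of the 4 proteins causes the bare lymphocyte syndrome. CIITA is read from its lower toward its higher coordinate and has several alternative promoters in the first part of the gene, which dendritic cells, B cells and interferon-gamma-treated cells use differently. Plasma cells normally silence it through the repressor PRDM1.

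Promoter sequences were available for 3 of the 4 genes (RefSeq, GRCh38.p14, 250 bases before to 50 after a listed start), and 1 start per gene is shown, each of them under the strongest H3K27ac region of its gene in all 3 genotypes. RFX5 and RFXANK have 3 listed starts each. The RFX5 start shown is the upstream one, which an HA region of the tagged line also covered. Regions of the KDM6A antibody covered it in ARP1 KO and in KARPAS, but not in ARP1 WT. The RFXANK start shown is the second. CIITA has no entry. The promoter of DEXI, a gene inside the CIITA span that is read from the minus strand and starts near its higher end, is shown because the highest-ranked H3K27ac region of the CIITA window lay at it. Capitals mark CCAAT, the core bound by NF-Y, and TGACG, the short core of CREB family sites, each searched on both strands.

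RFX5 (chr1:151347203-151347502, minus strand, start 151347252): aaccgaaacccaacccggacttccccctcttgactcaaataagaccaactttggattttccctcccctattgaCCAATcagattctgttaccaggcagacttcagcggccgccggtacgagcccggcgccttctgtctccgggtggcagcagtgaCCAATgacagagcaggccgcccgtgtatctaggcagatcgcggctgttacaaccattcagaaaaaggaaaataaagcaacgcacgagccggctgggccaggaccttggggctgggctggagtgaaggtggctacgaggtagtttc
RFXAP (chr13:36818972-36819271, plus strand, start 36819222): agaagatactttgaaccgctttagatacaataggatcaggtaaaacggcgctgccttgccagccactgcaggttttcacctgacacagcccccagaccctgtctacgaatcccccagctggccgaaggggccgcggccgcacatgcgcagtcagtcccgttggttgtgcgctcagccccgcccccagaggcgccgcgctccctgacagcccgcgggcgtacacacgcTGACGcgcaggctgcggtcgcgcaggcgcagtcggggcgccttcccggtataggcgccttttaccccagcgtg
RFXANK (chr19:19192029-19192328, plus strand, start 19192279): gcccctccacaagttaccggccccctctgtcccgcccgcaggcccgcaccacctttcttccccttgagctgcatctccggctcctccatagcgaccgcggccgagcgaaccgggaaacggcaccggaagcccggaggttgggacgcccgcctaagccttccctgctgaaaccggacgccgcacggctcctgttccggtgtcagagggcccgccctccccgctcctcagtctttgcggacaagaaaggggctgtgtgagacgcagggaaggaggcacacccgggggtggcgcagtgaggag
DEXI (chr16:10942419-10942718, minus strand, start 10942468): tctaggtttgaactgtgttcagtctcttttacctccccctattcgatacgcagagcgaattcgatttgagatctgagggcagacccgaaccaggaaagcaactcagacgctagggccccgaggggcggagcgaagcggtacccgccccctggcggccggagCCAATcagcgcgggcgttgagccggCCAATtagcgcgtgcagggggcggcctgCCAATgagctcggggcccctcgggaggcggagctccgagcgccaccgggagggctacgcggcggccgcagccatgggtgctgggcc

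The RFX5 sequence shown held 2 CCAAT matches and no TGACG, RFXAP held 1 TGACG and no CCAAT, RFXANK held neither, and DEXI held 3 CCAAT matches. The promoters of the other RFX5 starts differed, with no CCAAT, 2 TGACG matches at the start at position 151346856 and 1 at the start at position 151346999, and a CACGTG in each. The CCAAT letters occur in 34.6% and TGACG in 24.6% of the 35116 promoters of the same length in the table, so single matches are common. CCGGAAG, the core of ETS factor sites, was found once in the RFXANK sequence and in 10.3% of all promoters. TTCNNNGAA, the element of STAT factors, and CACGTG, an E box, were found in none of the 4 sequences shown and in 7.66% and 7.26% of all promoters. GGGCGG, the GC box, was found in all 4 sequences and in 45% of all promoters. None of these motifs contains another. The matches describe letters only, and no factor other than KDM6A was profiled in the lists used here.

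After the authors' filtering the H3K27ac libraries held 25568819 (KO), 31171803 (JmjD-dead) and 30772474 (WT) fragments, and the H3K27me3 libraries 6595820, 10449019 and 5026016 in the same order. H3K4me1 had 25570686 (KO) and 34023091 (WT) fragments. The KDM6A antibody gave 37389280 (KARPAS), 20186824 (ARP1 KO) and 11898708 (ARP1 WT) tags, and the HA antibody 25265497 (tagged line) and 16624794 (WT line). Inputs were shallow, at 222942 to 724630 fragments, and listed 1 region in the CIITA window and 1 in the RFX5 window, both with a pileup of 2 fragments. Fold enrichment, −log10 q and rank below are the authors' values or derive from them, and they describe a region within its own list only. Covered bp is the length of a window under the regions of a list.

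CIITA (gene ID 4261, chr16:10866206-10943021) was marked in ARP1 in 2 places, in the first part of the gene and at its higher end. Its alternative promoters lie in that first part, and since no CIITA transcript start was available, regions were not assigned to them. Within 2.5 kb of the lower end of the gene no ARP1 list of any antibody held a region, and the KARPAS KDM6A list held 2. Within 2.5 kb of the higher end the H3K27ac lists held 2 (KO), 3 (JmjD-dead) and 3 (WT) regions. That end is not CIITA's alone. The DEXI start (position 10942468) lies 553 bp inside it and the CLEC16A start (position 10944564) 1543 bp beyond it, and CLEC16A and DEXI are the only other protein-coding genes in the window.

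**Figure D1:**
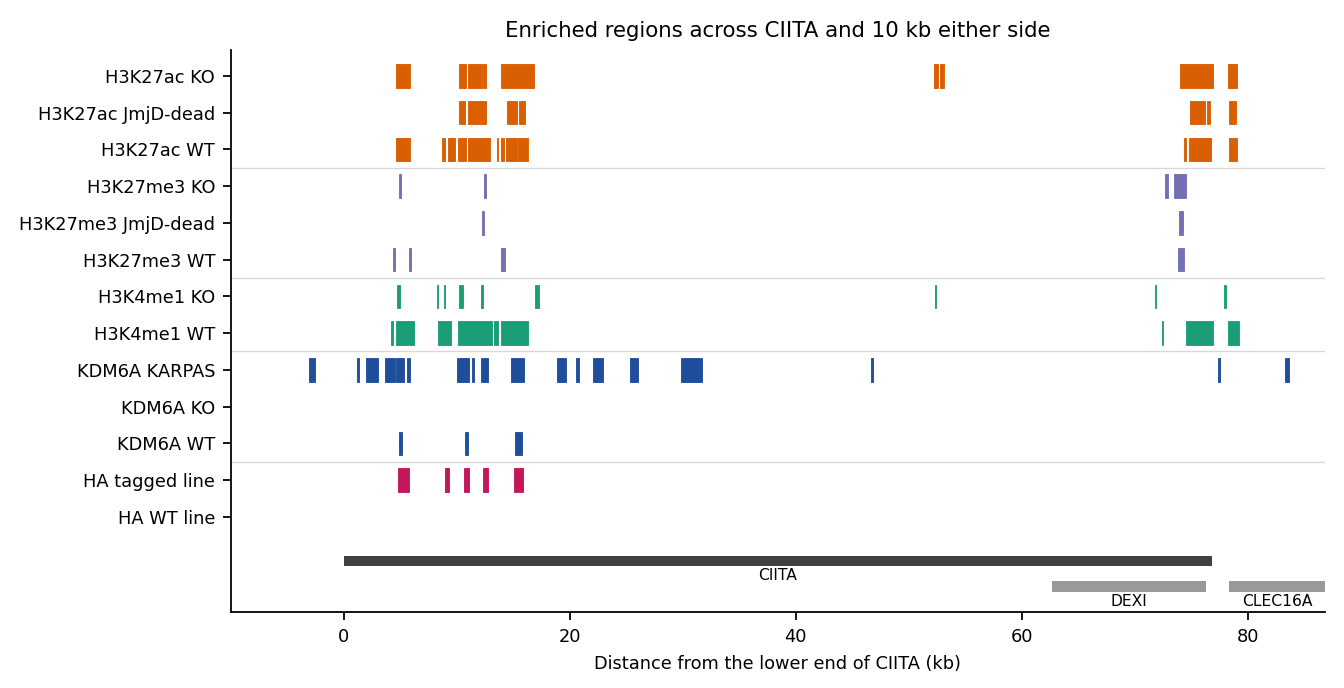
Enriched regions across CIITA and 10 kb either side, by distance from the lower end of the gene in kb (x axis) and by list (rows). Coloured bars are regions, drawn to scale, and the dark and grey bars at the bottom are the genes. Most histone regions fall in 2 blocks, one inside the first 20 kb and one around the DEXI and CLEC16A starts, with KO regions near 52 kb as the exception, while the KARPAS KDM6A list holds 18 regions and the ARP1 KO KDM6A and WT-line HA lists hold none.

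The highest-ranked H3K27ac region of the window lay at the DEXI end in every genotype. It was chr16:10940220-10943158 in KO (−log10 q 108.2, 34.1-fold, rank 6666 of 76242), chr16:10941121-10942428 in JmjD-dead (42.9, 16.9-fold, rank 15361 of 74063) and chr16:10940995-10942937 in WT (108.81, 32-fold, rank 7970 of 69127). The DEXI start itself lay inside the KO and the WT region and 40 bp beyond the JmjD-dead one, in the space before a second JmjD-dead region. The CLEC16A start was inside an H3K27ac region in all 3 genotypes. Neither start was inside a region of any KDM6A or HA list.

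The CIITA block proper lay between about 4 and 17 kb from the lower end. In the first 20 kb of the gene (a boundary chosen after the values were seen), H3K27ac cover reached 6190 bp (KO) and 3482 bp (JmjD-dead), against 6935 bp in WT. The ratio to WT was therefore 0.893 in KO and 0.502 in JmjD-dead. Cover leaves out strength, and at the strongest WT regions of the block pileups, which are not scaled for depth, were lower in both mutants. Regions beginning at positions 10876385 (KO), 10876410 (JmjD-dead) and 10876320 (WT) had pileups of 15, 15 and 30. Those beginning at 10877189, 10877188 and 10877164 had 17, 25 and 43 in the same order. Those beginning at 10880128, 10880696 and 10880573 had 30, 17 and 36. Fold enrichment, in the same order, was 6.65, 6.29 and 11.5 at the first of these places and 7.48, 10.2 and 16.4 at the second. At the last it was 12.9, 7.08 and 13.8, so KO was close to WT there. The KO region at 10880128 alone was 2924 bp long, and the KO library was the shallowest. At the DEXI end, the last 10 kb of CIITA and the 10 kb beyond, the 3 lists covered 3657 (KO), 2187 (JmjD-dead) and 2805 bp (WT), with ratios of 1.3 and 0.78. Over the whole window the H3K27ac cover was 10513 bp (KO) and 5669 bp (JmjD-dead), against 9740 bp in WT, ratios of 1.08 and 0.582. The 1 Mb on either side gave ratios of 1.18 in KO and 1.01 in JmjD-dead. A gene was called higher or lower when its covered bp differed by at least 1.5-fold and reached 500 bp in either list. By that rule JmjD-dead was lower than WT at CIITA, as at 7.44% of the 14288 genes compared, a call that a limit of 2-fold does not give. KO was within the fold, where 14.3% of 14594 genes were higher and 6.68% lower.

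Of the 12 H3K27ac regions in the WT window, 6 had no overlapping region in JmjD-dead and no JmjD-dead region was new. The 6 included chr16:10870849-10872104, which in WT had a pileup of 26 fragments, −log10 q 20.46 and rank 21654, and at which the KO library held chr16:10870863-10872073 with a pileup of 13 and −log10 q 7.45. No JmjD-dead region was listed below position 10876410 within the gene. The other 5 had WT pileups of 8 to 16. KO lacked 3 of the 12 WT regions, with WT pileups of 9 to 16, and held 2 that WT lacked, both about 52 kb into the gene, with pileups of 11 and 7. The share of regions without a counterpart over the whole lists was not computed, so these counts have no background beside them.

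**Figure D2:**
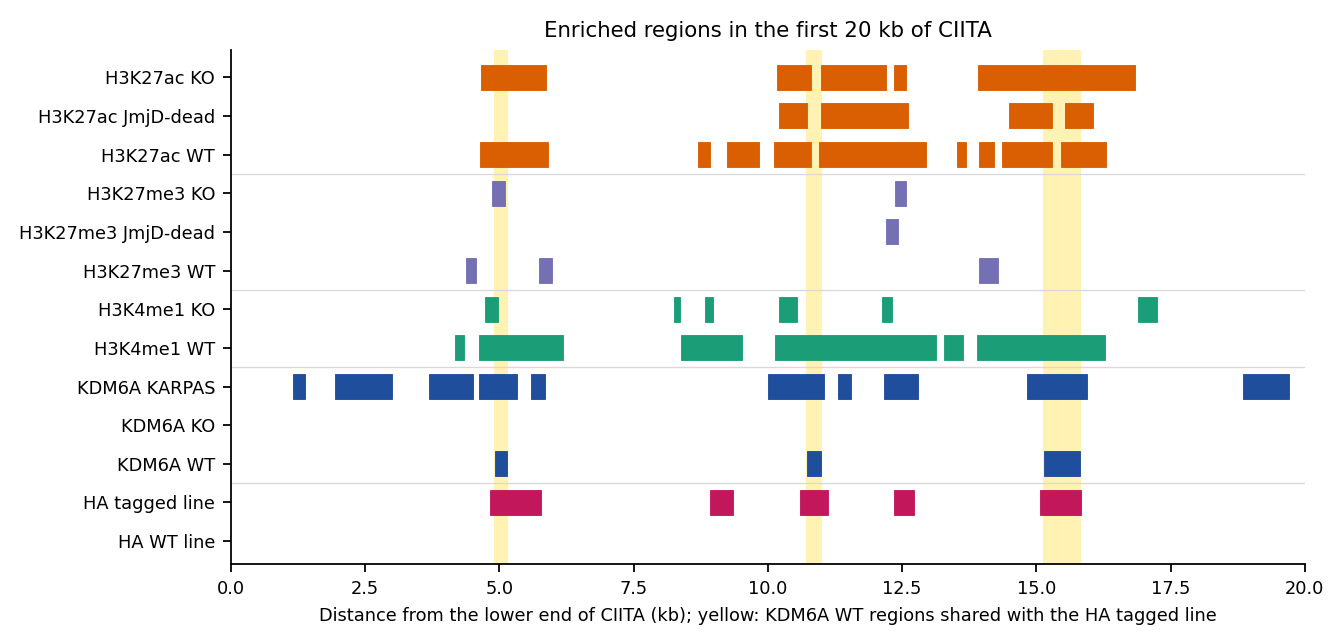
Regions in the first 20 kb of CIITA, by distance from the lower end of the gene in kb (x axis) and by list (rows), with yellow bands at the 3 KDM6A WT regions shared with the HA-tagged line. The bands lie 5.03, 10.9 and 15.6 kb into the gene, the H3K27ac bars of all 3 genotypes break at the middle one, and the JmjD-dead H3K27ac row is empty at the first.

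A total of 3 sites in the CIITA block were listed by both antibodies for KDM6A. The KDM6A antibody listed no region in KO and 3 regions in WT, covering 1149 bp, where 14% of gene windows held a region in KO and 36.8% in WT. The HA antibody listed 5 regions covering 3045 bp in the tagged line and none in the WT line, beside 44% and 35.6% of all windows. Each of the 3 KDM6A WT regions overlapped an HA region of the tagged line and a KDM6A region of KARPAS. Windows with at least 1 region on both the KDM6A WT list (absent from KO) and the tagged HA list (absent from the WT line) made up 19.1% of 19970 genes, and windows with at least 3 made up 3.3%. With KARPAS added, the shares were 9.43% and 0.751%. The CIITA window is 96816 bp long and the median window 44190 bp, and no share was adjusted for that length.

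The first site, chr16:10871125-10871345, was the weakest of the 3 on the KDM6A WT list, with a pileup of 8 tags, 4.78-fold enrichment, −log10 q 4.13 and rank 49093 of 90964. Its summit lay 11 bp from that of an HA region with a pileup of 19 and 8 bp from that of a KARPAS region with a pileup of 58. The second, chr16:10876944-10877198, had a pileup of 14, 7.97-fold enrichment and rank 16290 in KDM6A WT. The HA summit there was 81 bp and the KARPAS summit 119 bp away. H3K27ac regions flanked its KDM6A summit without covering it, leaving a gap of 182 bp in KO, 246 bp in JmjD-dead and 157 bp in WT. The third, chr16:10881351-10882023, was the strongest, with a pileup of 25, 13.8-fold enrichment, −log10 q 25.0 and rank 3843. It was also the highest-ranked of the CIITA window on the HA list of the tagged line (chr16:10881279-10882041, 14.6-fold, −log10 q 37.01, rank 2144 of 54338). H3K27ac covered its KDM6A summit in all 3 genotypes.

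All 3 KDM6A sites and all 5 HA regions overlapped H3K27ac and H3K4me1 regions of ARP1 WT. JmjD-dead H3K27ac overlapped the second and the third site only. The KDM6A KO list, the background of that antibody, was sparse around CIITA altogether, with 5 regions within 1 Mb either side against 44 in WT, or 0.162 and 0.706 times the mean density of each list. The nearest KO region on the lower side of the gene ended at position 10812840, and that on the higher side began at position 11362028. The HA list of the WT line held 24 regions within 1 Mb, against 35 in the tagged line, or 0.445 and 0.94 times the mean density of each list. As a whole the WT-line HA list was the longer, with 78725 against 54338 regions.

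KARPAS, the other myeloma line, carried far more KDM6A regions at CIITA than ARP1. The KARPAS list held 18 regions and 12100 bp in the window, against 3 regions and 1149 bp in ARP1 WT, from a library of 37389280 against 11898708 tags and a list of 55867 against 90964 regions. Its covered share of the window, 12.5%, stood at percentile 99.5 of all genes in KARPAS, and that of ARP1 WT, 1.19%, at percentile 89.1. A KDM6A region was present at 54.9% of all windows in KARPAS. The surroundings of CIITA differed in the same direction. Within 1 Mb either side KARPAS listed 146 regions, 3.81 times its list mean, against 44 and 0.706 times in ARP1 WT. The part of this density in the CIITA values was not tested. The first KARPAS region, chr16:10863121-10863646 (pileup 67, rank 2549), lay before the lower end of the gene, where no ARP1 list held a region. The top one, chr16:10896016-10897937, had a pileup of 107, 28.7-fold enrichment and rank 525 of 55867, and no ARP1 list of any antibody held a region there. Of the 18 regions, 3 overlapped an ARP1 WT KDM6A region and 6 an ARP1 WT H3K27ac region. KARPAS histone marks were not analysed here, and the cell lines and the depths cannot be told apart as sources of the difference.

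H3K4me1, a mark of enhancers and promoter flanks, covered 1797 bp of the CIITA window in KO and 12155 bp in WT, a ratio of 0.148. In WT it lay over nearly the same ground as H3K27ac: 94.3% of the H3K27ac bp in the window were also under H3K4me1. In KO that share was 7.17%. The 9 KO regions had pileups of 6 to 15 and lengths of 124 to 349 bp, whereas the 3 longest WT regions, 2384 to 2988 bp, had pileups of 40 to 71. An H3K4me1 region was present at 60.1% of all windows in KO and 78.1% in WT. The direction is that of most genes, since 86% of 15116 genes were lower in KO and the median ratio over genes was 0.0987. Within 1 Mb of CIITA the H3K4me1 bp of KO over WT were 0.133, so CIITA stood at 1.11 relative to its surroundings. The best-ranked KO region, chr16:10870945-10871179 (rank 4824 of 80845), lay at the first of the KDM6A sites.

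H3K27me3, the mark that KDM6A removes, covered a small part of the CIITA window, though a larger share than at most genes. That share was 1.84% in KO (percentile 94.5 of all genes), 0.587% in JmjD-dead (percentile 67.8) and 1.41% in WT (percentile 90.9). H3K27me3 cover was 1784 bp (KO) and 568 bp (JmjD-dead), against 1366 bp in WT. The lists held 4, 2 and 4 regions, with pileups of 5 to 8 fragments. Windows with an H3K27me3 region made up 22.9% of genes in KO, 44.7% in JmjD-dead and 31.2% in WT. The ratio was 1.31 in KO and 0.416 in JmjD-dead. JmjD-dead was called lower, as at 10.3% of 5666 genes, in a comparison in which 73.7% were higher. KO was within the fold, where 52.9% of 3392 genes were lower and 26.6% higher. A region near 74 kb, inside DEXI and downstream of its start, was listed in all 3 genotypes. The other WT regions, 3 of the 4, had no counterpart in either mutant. Of the regions that were listed, 3 of 4 in KO, 1 of 2 in JmjD-dead and 2 of 4 in WT overlapped H3K27ac of the same genotype. At these pileups each region rests on a few fragments, and the share of all WT regions without a counterpart was not computed.

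**Figure D3:**
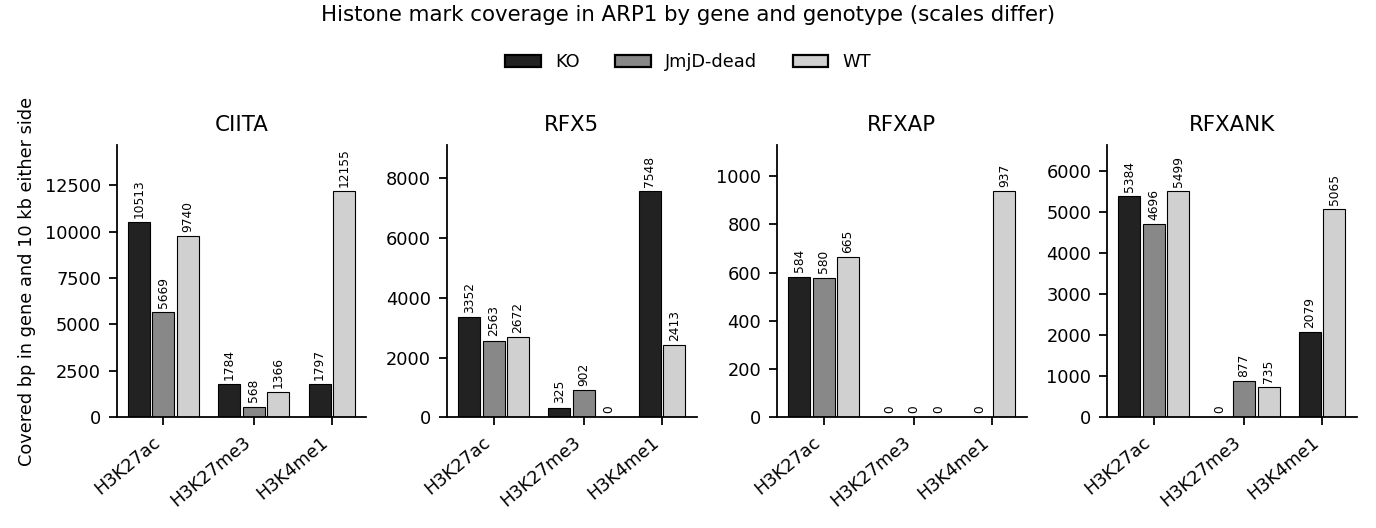
Covered bp in the gene and 10 kb either side (y axis, scales differ) for H3K27ac, H3K27me3 and H3K4me1 at each gene, with KO in black, JmjD-dead in grey and WT in light grey. Each bar is 1 library, without an error bar. H3K27ac is lowest in JmjD-dead at CIITA, at 5669 bp, and H3K4me1 is higher in KO than in WT only at RFX5, at 7548 against 2413 bp.

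RFX5 (gene ID 5993, chr1:151340640-151347252, minus strand), the DNA-binding subunit, had the same strong H3K27ac region over its 3 listed starts in every genotype. It was chr1:151345729-151348278 in KO (pileup 144, rank 1930), chr1:151346009-151348247 in JmjD-dead (pileup 164, rank 1928) and chr1:151345797-151348252 in WT (pileup 172, rank 2060), all within the top 3% of their lists. Covered H3K27ac was 3352 bp (KO) and 2563 bp (JmjD-dead), against 2672 bp in WT, and both ratios, 1.25 and 0.959, were within the fold. A start inside an H3K27ac region is common, at 53.8% (KO), 52.3% (JmjD-dead) and 52.6% (WT) of 15811 genes with a listed start. H3K27me3 was listed over 325 bp (KO) and 902 bp (JmjD-dead), and not at all in WT, with pileups of 5 to 7. JmjD-dead was thereby called higher, as at 73.7% of genes.

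The H3K4me1 lists differed in shape at RFX5. In KO no H3K4me1 region covered a start, and 12 regions, none with a pileup above 16, lay over the gene body and on both sides of it. In WT a single region of 2301 bp with a pileup of 159 covered the starts (rank 1249 of 95729). H3K4me1 covered 7548 bp of the RFX5 window in KO, against 2413 bp in WT, and the ratio of 3.13 was called higher, as at 7.52% of genes. RFX5-AS1, a long non-coding gene read from the plus strand, overlaps the upstream RFX5 start. The pattern at the start itself is general, since a listed start lay in an H3K4me1 region at 2.02% of genes in KO and 57.6% in WT.

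The KDM6A antibody listed 6 regions (2097 bp) at RFX5 in KO cells, which lack KDM6A by their label, and none in WT. They had pileups of 8 to 13, and 5 of the 6 overlapped an H3K4me1 region of KO. One of them, chr1:151347211-151347891, held the upstream start (position 151347252), as a KDM6A antibody region did at 0.734% of genes in KO, 1.07% in ARP1 WT and 4.78% in KARPAS. KARPAS listed 2 regions there with pileups of 12 and 14. The HA antibody listed chr1:151346948-151347870 in the tagged line (pileup 17, rank 14886), which held 2 of the 3 starts, and nothing in the WT line. A start inside a tagged-line HA region was found at 6.55% of genes, and at 10.6% for the HA list of the WT line. The HA region at RFX5 also overlapped the KO region of the KDM6A antibody, and no KDM6A WT region lay there, so RFX5 held no site listed by both antibodies in the way of the CIITA sites.

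These RFX5 values belong to a stretch of chromosome 1 that is dense in regions on the KO lists of the KDM6A antibody and of H3K4me1. Within 1 Mb either side, the KDM6A antibody listed 532 regions in KO and 58 in WT, 17.9 and 0.963 times the mean density of each list. H3K4me1 had 758 regions in KO and 271 in WT, 14.2 and 4.27 times the mean. The covered H3K4me1 bp of KO over WT within 1 Mb were 2.65, so that RFX5 stood at 1.18 relative to its surroundings. H3K27ac stood at 4.58 (KO), 3.12 (JmjD-dead) and 4.24 (WT) times the mean, and H3K27me3 at 8.78, 8.52 and 8 times. HA regions stood at 4.39 times the mean in the tagged line and 1.92 times in the WT line. The input of KO listed 15 regions there, 2.02 times its mean, against 2.59 times in the WT input. The part of this density in the RFX5 values was not tested.

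**Figure D4:**
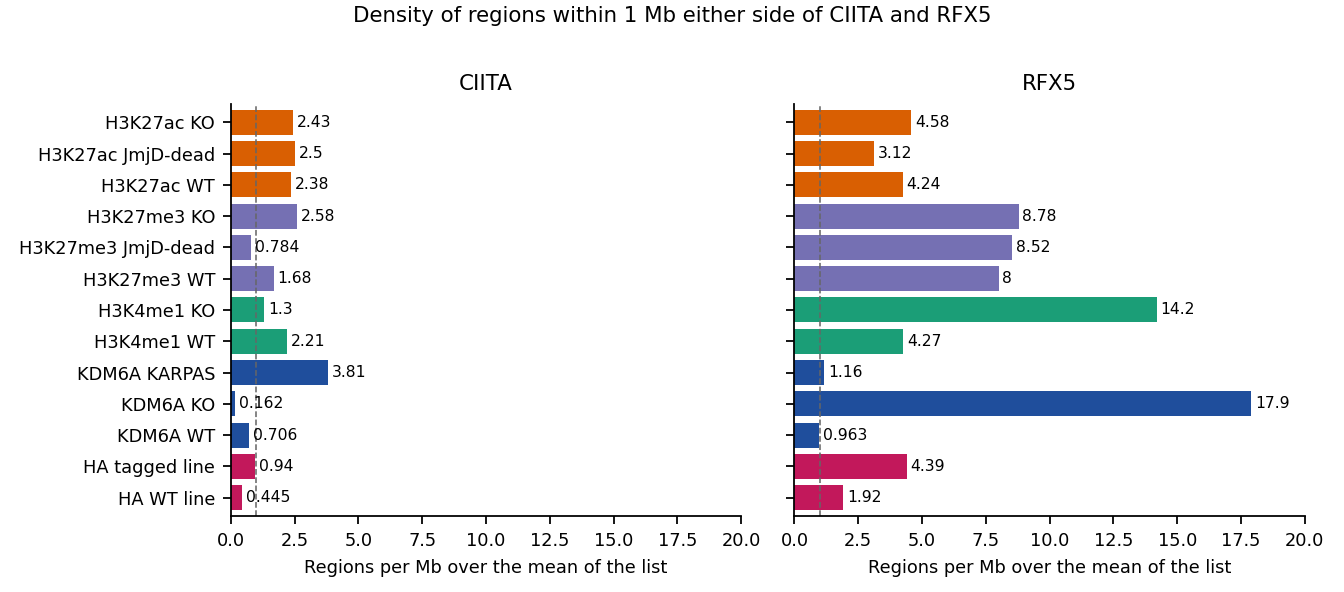
Regions per Mb within 1 Mb either side of CIITA (left) and RFX5 (right), divided by the mean density of the same list (x axis), for each list (rows). The dashed line marks the list mean. Around RFX5 the KO lists of the KDM6A antibody and of H3K4me1 reach 17.9 and 14.2, and around CIITA the KDM6A KO list reaches 0.162.

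RFXAP (gene ID 5994, chr13:36819222-36829104, plus strand), the smallest set, carried at most 1 region per list, always at its start. H3K27ac cover was 584 bp (KO) and 580 bp (JmjD-dead), against 665 bp in WT, with ratios of 0.878 and 0.872. The region reached across the start in all 3 genotypes, with summits 169, 353 and 197 bp downstream of it. Pileups were 30 (KO), 28 (JmjD-dead) and 45 (WT). H3K4me1 had no region in KO and 937 bp in WT (pileup 47), a call shared with 86% of genes. No H3K27me3, KDM6A or HA list held a region in the window, KARPAS included. The surroundings were poor in regions too, with H3K27ac at 0.158 to 0.305 times the list mean within 1 Mb.

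RFXANK (gene ID 8625, chr19:19192258-19201866, plus strand), the ankyrin-repeat subunit, had the highest-ranked H3K27ac region of the 4 genes in each genotype. The H3K27ac region over its first start had a pileup of 191 in KO (rank 720), 217 in JmjD-dead (rank 790) and 248 in WT (rank 648). It also held the start of BORCS8 and of the BORCS8-MEF2B readthrough (position 19192152), which is read in the opposite direction from 106 bp away, so the region cannot be assigned to one of the genes. In KO it was split, at position 19192650, from a second region that began at 19192825 and held the third start, while JmjD-dead and WT had 1 region over all 3 starts. A further H3K27ac region at the other end of the gene held the NR2C2AP start in all genotypes. Covered H3K27ac was 5384 bp (KO) and 4696 bp (JmjD-dead), against 5499 bp in WT, with ratios of 0.979 and 0.854.

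H3K4me1 at RFXANK covered 2079 bp in KO in 10 regions with pileups of 6 to 9, and 5065 bp in WT in 6 regions, the best with a pileup of 241 and rank 222 of 95729. The ratio of 0.41 was called lower, and the 1 Mb on either side stood at 0.445. H3K27me3 was not listed in KO, and covered 877 bp in JmjD-dead and 735 bp in WT, with pileups of 5 to 8. RFXANK was called lower in KO for that mark, as 52.9% of genes were. No ARP1 list of the KDM6A or the HA antibody held a region in its window, and KARPAS listed 1, of 341 bp, 17.3 kb from the gene start.

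**Figure D5:**
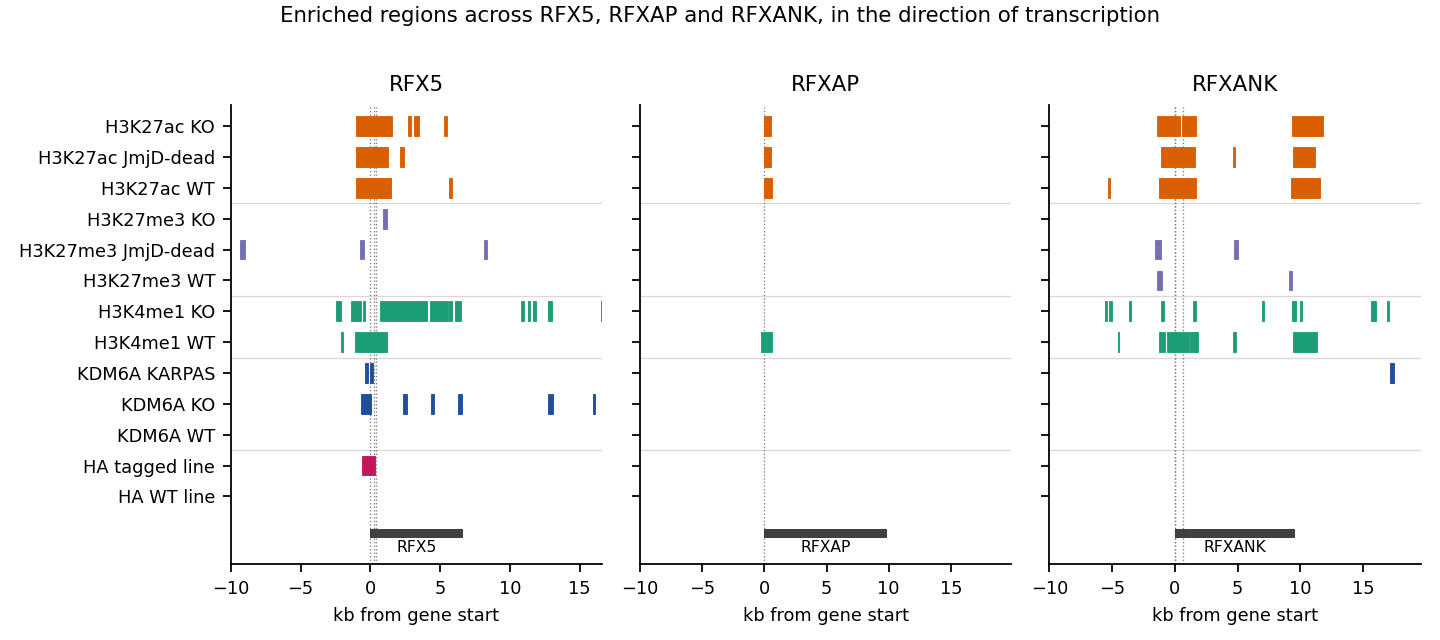
Enriched regions at RFX5, RFXAP and RFXANK by distance in kb from the upstream-most listed start, in the direction of transcription (x axis), and by list (rows). Dotted lines mark the listed starts and the dark bar the gene. H3K27ac covers a start of each gene in all 3 genotypes, and H3K4me1 does so in WT and not in KO. ARP1 regions of the KDM6A antibody (KO list only) and of the HA antibody (tagged line only) lie only at RFX5.

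Across the 4 genes, H3K27ac was called in 0 of 4 in KO and in 1 of 4, CIITA, in JmjD-dead, where 6.3% of all genes were higher and 7.44% lower. The 3 RFX genes differed from WT by ratios of 0.854 to 1.25 in the 2 mutants. H3K4me1 was lower in KO at 3 of 4, a share below that of all genes, and higher at RFX5. H3K27me3 reached 500 bp in either list at 2 genes for KO, with RFXANK lower, and at 3 for JmjD-dead, with CIITA lower and RFX5 higher against no region in WT. KDM6A WT regions without a KO counterpart were present at 1 of the 4 genes, CIITA, against 34.4% of all genes. HA regions of the tagged line without a counterpart in the WT line were present at 2, CIITA and RFX5, against 39.8%. With 4 genes, these shares cannot be set apart from those of all genes.

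The class II genes that these factors serve were nearly without H3K27ac. Of 14 such genes, the windows of 2 in KO, 1 in JmjD-dead and 1 in WT held a region, against 76.5%, 74.6% and 74.3% of all genes. The exceptions were HLA-DMA and HLA-DMB, adjoining genes for the peptide editor, with 152 bp each in KO, and 152 bp in JmjD-dead and 175 bp in WT at HLA-DMA alone. The same pair held the only KDM6A WT cover of the list, 396 bp in each of their overlapping windows, shared with the tagged HA list and KARPAS, so that 2 of 14 windows held a KDM6A WT region, against 36.8% of all genes. HA regions of the tagged line lay in the windows of 6 of the 14, near the 44% of all genes, as 3 neighbouring pairs that each gave the same covered bp, HLA-DQA1 with HLA-DQB1, HLA-DPA1 with HLA-DPB1, and HLA-DMA with HLA-DMB. The WT line had none. H3K4me1 was listed at 9 of 14 in KO and 4 in WT, against 60.1% and 78.1% of all genes, with HLA-DRB1 covered by 1223 bp in KO and 421 bp in WT. HLA-DRB1, HLA-DRB5 and the HLA-DQ genes have near-identical copies, and their regions are uncertain.

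Partners, coactivators, other RFX genes and regulators of CIITA were read against the same shares of all genes, 74.3% to 76.5% with H3K27ac. All 4 X-box and Y-box partners, NFYA, NFYB, NFYC and CREB1, and all 4 coactivators, EP300, CREBBP, KAT2B and SMARCA4, held H3K27ac in every genotype. None was called in either direction in KO or JmjD-dead. Among all genes compared, 14.3% were higher and 6.68% lower in KO, and 6.3% and 7.44% in JmjD-dead. So few genes cannot be set apart from those shares. The median ratio of the partners was 1.03 in KO and 0.906 in JmjD-dead, beside 1.1 and 0.982 over all genes. Of the 7 other RFX genes, 4 held H3K27ac in every genotype, RFX1, RFX2, RFX3 and RFX7, a share below that of all genes. Of these 4, RFX2 was called higher in KO, at 2447 against 854 bp, a call made at 14.3% of all genes compared. Of 8 known regulators of CIITA, 7 held H3K27ac in KO, 6 in JmjD-dead and 6 in WT, near the share of all genes. PRDM1, the plasma cell repressor of CIITA, carried the most, with 37578 bp (KO) and 38435 bp (JmjD-dead), against 38547 bp in WT. SOCS1, an inhibitor of the interferon signal, had 3280, 3111 and 3402 bp. IRF4 had 20699, 18194 and 18584 bp, and IRF1, which drives CIITA after interferon, 12794, 11689 and 12331 bp in the same order. PAX5, the B cell activator of CIITA, had 654 bp in KO, none in JmjD-dead and 378 bp in WT. SPI1, which encodes PU.1, had 2172 bp in KO, 134 bp in JmjD-dead and none in WT. PAX5 and SPI1 were called higher in KO, 2 of the 7 regulators compared, beside 14.3% of all genes compared.

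The labelled cell type was checked on the same windows. All 10 plasma cell markers held H3K27ac in every genotype, with a median of 15980 bp (KO), 15990 bp (JmjD-dead) and 14971 bp (WT), beside 2282, 2005 and 2040 bp over all genes. Of all genes, 76.5%, 74.6% and 74.3% held it in the same order. B cell markers held it at 4, 3 and 5 of 8, with a summed cover of 22270, 24691 and 22294 bp. MS4A1 (CD20), CD79B and CD22 were at 0 in all 3 genotypes. The most B cell marker cover lay at CD79A (13067, 10143 and 11848 bp) and BLK (5758, 12109 and 6880 bp). T and NK cell markers held it at 4 of 6 in each genotype, CD3E, CD3G, CD2 and GNLY, with CD3D and NKG7 at 0. The T and NK cell sums were 7549, 5338 and 8842 bp. Myeloid and dendritic markers held it at 5, 5 and 4 of 5, none of them at 0 in KO, with sums of 12395, 10659 and 8774 bp. CLEC9A had the most of these, at 7107, 5278 and 4207 bp. Fibroblast and epithelial markers held it at 2, 3 and 2 of 6, with COL1A2 and DCN at 0 and sums of 4653, 1493 and 1194 bp. Because ARP1 is a cell line, these sums describe marker windows in that line and measure no share of other cell types.

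By covered share of the window over the 13 antibody lists, as percentiles among all genes, the genes most like CIITA and over 1 Mb away were NAGPA, SLX4 and SLC12A3, at mean absolute differences of 5.74, 5.75 and 5.76 percentile points, beside a median of 32.9 over all genes. All 3 are on chromosome 16, as CIITA is. RFX5 was most like KCNJ9 (2.72), MEX3A (6.95) and DYNLT2B (6.96), the first 2 on chromosome 1. RFXANK was most like ICAM1 (2.21), FUZ (2.34) and GNB2 (2.34). RFXAP, with 4 covered lists, was most like HTR1B (0.386), ENDOV (0.408) and CTHRC1 (0.437), where the many empty lists make likeness easy to reach. These lists share libraries and depths, so likeness describes the lists and no more.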

How the data were processed

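Chromatin immunoprecipitation libraries, 1 per group, were grouped by titles, genotype and antibody labels. Of 20 libraries, 16 human ones were used and 4 mouse ones were not. The submitters' processing notes name Bowtie2, Trimmomatic, MACS2 2.1.2, FastQC, MultiQC and the GRCh38 build. Per the file headers, MACS 2.2.7.1 called the ARP1 input, H3K27ac and H3K27me3 regions and 2.1.1.20160309 the others. The same headers record calls per library with neither control nor local lambda and a q-value limit of 0.05, a setting in which copy number and depth can move regions. The authors deposited, for each summit, its pileup (a signal) and fold enrichment (a ratio). They also deposited −log10 of its p-value and −log10 of its q-value. Redundant rates in the headers were 0.36 to 0.61 for ARP1 H3K27ac, H3K27me3 and input, and at most 0.05 elsewhere. The KDM6A and HA lists came from single-end tags, the others from paired fragments. Chromosomes 1 to 22 and X were used.

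Here, summit rows with the same coordinates were merged, and regions were ranked by −log10 q, then fold, with ties sharing a rank. Regions shared at least 1 bp. Genes came from RefSeq (GRCh38.p14, 19970 protein-coding genes), which gives no strand or transcript start for CIITA. A gene was compared where covered bp reached 500 in either list and called at 1.5-fold. The genes, lists and alternatives were chosen with earlier results of these data known. Named were the 4 members in full, every protein-coding neighbour in their windows, up to 4 genes of each pathway list with the most covered bp in WT, and the 3 most similar genes. Genes named outside that rule (the class II pairs, HLA-DRB5, PAX5, SPI1 and the named marker genes) were chosen after their values were seen. Overlap and rank functions were tested on simulated intervals. Python 3.11.15, numpy 2.4.6, pandas 2.3.3 and matplotlib 3.10.9 were used. Alternatives were a −log10 q minimum of 5, lists trimmed to equal length, narrower windows, 50% overlap, removal of regions on input, a fold of 2 and a minimum of 1000 bp.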

Additional observations from a re-analysis of the deposited data

Results flagged for a closer look

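At 3 genes the KO and the JmjD-dead library lay on opposite sides of the same WT library, and with 1 library per group the difference between the mutants was not tested. At CIITA, H3K27ac in KO exceeded WT by 773 bp of covered sequence, and the difference of JmjD-dead minus WT was -4071 bp. The opposite directions did not hold in the first 20 kb of CIITA, where both mutants were below WT, at 6190 (KO) and 3482 bp (JmjD-dead) against 6935 bp in WT. The KO excess lay in the middle of the gene (666 bp, against none in WT) and at the DEXI end (3657 against 2805 bp). At RFX5, H3K27ac differed by 680 bp in KO minus WT and by -109 bp in JmjD-dead minus WT, both within the fold. H3K27me3 at CIITA differed by 418 bp in KO minus WT and by -798 bp in JmjD-dead minus WT, from 2 to 4 regions per list with pileups of 5 to 8 fragments. In the first 20 kb H3K27me3 was again below WT in both, at 448 (KO) and 224 bp (JmjD-dead) against 805 bp in WT. At RFXANK, H3K27me3 differed by -735 bp in KO minus WT, where KO had no region, and by 142 bp in JmjD-dead minus WT. The libraries held 25568819 (KO), 31171803 (JmjD-dead) and 30772474 (WT) fragments for H3K27ac and 6595820, 10449019 and 5026016 for H3K27me3, and the part of depth was not tested.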

How the results depend on the processing

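No paired analysis was possible because each group had 1 library. Of 643 recomputed values, 526 kept their call and moved by no more than 1.5 times, 116 moved further or crossed a call and 1 reversed. The reversal was H3K4me1 at CIITA, at 1.11 (KO over WT) relative to the 1 Mb on either side, an alternative added after seeing the data. On the same scale RFX5 H3K4me1 stood at 1.18. Removal of regions on input regions kept 26 of 26 values in that sense. No antibody region in the 4 windows overlapped an input region, so this alternative could not change any of them. The KDM6A sites at CIITA numbered 2 in place of 3 with a −log10 q minimum of 5 and with lists of equal length, which leave out the first site, and the HA regions 4 in place of 5 at that q. The lower H3K27ac at CIITA in JmjD-dead was called under 5 alternatives, from 0.561 to 0.635, and was 0.78 at the DEXI end only, an added alternative. At 2-fold the whole-window ratio of 0.582 is not called. With −log10 q of at least 5, CIITA H3K27me3 was 3.09 in KO over WT and 0 in JmjD-dead over WT, and H3K4me1 0.0204. H3K27ac regions lost were then 1 in KO and 2 in JmjD-dead, and gained 1 in KO. With equal list lengths JmjD-dead H3K27me3 at CIITA was 0. H3K27me3 of KO over WT was 0.557 in the first 20 kb and 2.38 at the DEXI end, where H3K4me1 was 0.0842. An end window of 10 kb gave 1 H3K27ac region at the lower CIITA end in KO and 3 in WT. At the higher end, 1 kb windows gave 1 in KO and 1 in WT, and the gene body alone 1 in KO. At 2-fold, the background of H3K27ac was 6.78% higher and 3.33% lower in KO, and 3.08% and 3.35% in JmjD-dead. With 1000 bp, that of lower H3K27me3 in JmjD-dead was 5.69%. The causes were not tested. H3K27me3 was the shallowest mark, and its regions rest on 5 to 8 fragments.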
